A study of Mus musculus with 30 samples.

Results

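Collagen chain genes were followed through 30 RNA-seq libraries of mouse 4T1 tumours. A member is a gene whose symbol is Col, a number, the letter a and a number. By that rule 44 of 55401 genes were members, and the 26 that averaged at least 5 CPM (a gene's counts scaled to the same total of gene counts in every library) in at least 1 group are described in detail. 4T1 is a mouse mammary carcinoma line, here carrying green fluorescent protein, in wild-type mice, and all libraries came from tumour tissue. The groups, with 5 libraries in each of 6, were sorted tumour cells (4T1), CD4+ T cells and CD8+ T cells, each from mice given a control IgG1 (CTRL) or the antibody C269 against extracellular nicotinamide phosphoribosyltransferase (eNAMPT). C269 was given at 2.5 mg/kg, and dosing was 2 times a week for 1 month in the CTRL and C269 groups. The T cells were taken with magnetic beads. The title of the series asks whether neutralising this extracellular enzyme changes T cell responses and the axis of the inhibitory receptor PD-1 and its ligand PD-L1. Nothing in the labels ties libraries to separate animals, and p-values therefore describe the spread among these libraries alone.

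Collagens are secreted or membrane-bound proteins built from chains wound into a triple helix, and each chain has its own gene. Fibrillar collagens (types I, III, V, XI) form the cables of connective tissue, and fibroblasts are their main source in most organs and tumours. Type IV chains form the sheet-like network of basement membranes, type VI forms beaded filaments, type VIII a short-chain network, and types XII, XIV and XVI sit on the surface of fibrils. Types XV and XVIII are multiplexins of basement membrane zones, and types XIII, XXIII and XXV span the cell membrane. Chains are hydroxylated and chaperoned in the endoplasmic reticulum, trimmed outside the cell and cross-linked by lysyl oxidases. T cells are not a usual source of fibrillar collagen.

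Sorting and depth set the frame for these levels. Library totals ran from 2005579 to 5176494 gene counts, and the CD8 C269 group was the shallowest, at 2005579 to 3268974. Summed CPM of 5 T cell markers (Cd3e, Cd3d, Cd4, Cd8a and Cd8b1) was 3.261 to 68.64 in 4T1 CTRL, 396.1 to 826.6 in CD4 CTRL and 1792 to 2391 in CD8 CTRL. The sum of 6 epithelial markers was 226.2 to 577.1 CPM in 4T1 CTRL and overlapped CD4 CTRL at 212.7 to 330.1 CPM, so the epithelial list did not separate those fractions. No T cell or epithelial marker was at 0 throughout a group. In bulk samples, fewer cells of a type and less RNA per cell cannot be told apart.

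Single libraries stood apart in collagen counts. Library 5 (4T1 CTRL) had a median ratio of 3.84 to the median of the other 4 libraries of its group over 21 collagen genes, with 19 of them above 1. Library 11 (CD4 CTRL) was at 1.57, with 18 of 20 above 1, and library 20 (CD4 C269) at 2.61, with 17 of 20. In CD8 C269, library 29 was at 6.09 with 15 of 15 genes above 1, and library 28 at 0.0941 with 0 of 16. Fibroblast markers moved in the same libraries: their median ratios were 5.64 in library 5, 2.90 in library 11, 5.25 in library 20, 6.92 in library 29 and 0.211 in library 28. Median endothelial marker ratios were 0.673, 1.005, 1.15, 1.12 and 0.688 in these libraries, over only 3, 4, 3, 2 and 2 genes. In library 28 they were 0.150 for Kdr and 1.226 for Pecam1. Pericyte and smooth muscle marker ratios were 3.62, 0.876, 3.82 and 0.163 in libraries 5, 11, 20 and 28, over 2, 3, 2 and 1 genes. Libraries 9 and 10 (4T1 C269) held 5649 and 5442 CPM of epithelial and 1457 and 1431 CPM of pericyte and smooth muscle markers. The CTRL libraries of 4T1 reached at most 198.1 CPM of the latter. Their part in the collagen results was not tested, and the main collagen fits that include them were also run without them.

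The described members came from every structural class. They were 9 of 11 fibrillar chains, 3 of 6 basement membrane chains, 5 of 6 beaded filament chains, 3 of 9 fibril-associated chains, 2 of 4 transmembrane chains, both multiplexins, 1 of 3 short-chain network chains and 1 of 3 anchoring or other chains. Just inside the level of 5 CPM stood Col23a1 at 5.32 CPM in 4T1 C269 and Col6a4 at 5.86 CPM in CD8 CTRL. Just outside stood Col4a4 at 4.97 CPM and Col19a1 at 4.90 CPM, both in 4T1 CTRL. Among the remaining 16 members, Col6a6 reached 4.64, Col13a1 4.39 and Col20a1 3.97 CPM in their highest group. Col28a1, Col26a1, Col9a3, Col17a1, Col24a1, Col2a1, Col8a2, Col9a2 and Col4a6 stayed between 1.035 and 3.852 CPM. The cartilage chains Col9a1 and Col10a1, with Col22a1 and Col4a3, were below 1 CPM in every group, and Col10a1 had no count in any library. Col2a1, the main cartilage collagen, reached 2.131 CPM in 4T1 CTRL.

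**Figure D1:**
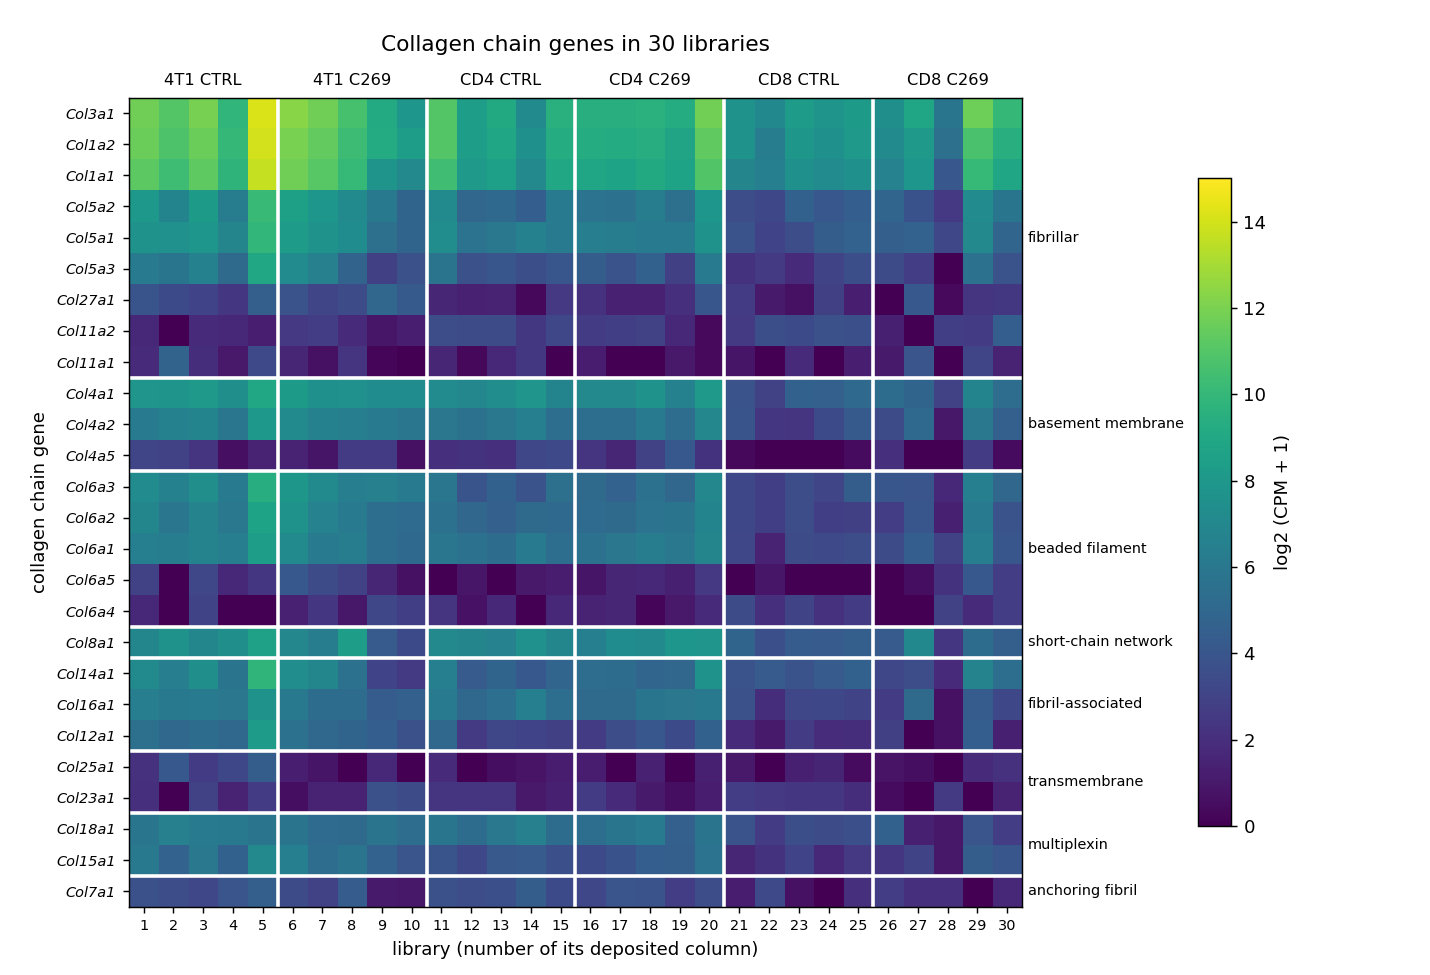
Levels of the 26 described collagen chain genes (rows, by structural class) in 30 libraries (columns, numbered as in the deposited tables) as log2 (CPM + 1). The Col3a1, Col1a2 and Col1a1 rows are brightest, library 5 is the brightest column in 4T1 CTRL, and the CD8 CTRL libraries are dim from Col5a2 downwards.

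Type I and type III chains led the family in every group. Col1a1 (chr11:94936224-94953042, GRCm38, plus strand) encodes the chain present in type I collagen trimers together with Col1a2. In 4T1 CTRL it stood at 2377, 1296, 2489, 858.9 and 13040 CPM in libraries 1 to 5, and in CD4 CTRL at 1362, 264.4, 347.5, 131 and 498.9 CPM in libraries 11 to 15. In CD8 CTRL it stood at 113.1, 88.55, 182.6, 147.7 and 185.3 CPM in libraries 21 to 25. All 5 tumour libraries were above all 5 CD8 libraries, while library 11 of CD4 CTRL overlapped the tumour range. Means were 4012 ± 5094 CPM in 4T1, 520.8 ± 488.9 in CD4 and 143.5 ± 42.5 in CD8 CTRL (SD, n = 5 each).

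Col3a1 (chr1:45311538-45349706, plus strand) encodes the chain of type III collagen, a fibril of soft tissue and healing wounds. Its 4T1 CTRL libraries held 3473, 1989, 3893, 930.7 and 18480 CPM, its CD4 CTRL libraries 2069, 319, 546.3, 138 and 733.5 CPM, and its CD8 CTRL libraries 210.8, 127.6, 310.2, 217 and 283.6 CPM. The order of libraries within a group was close to that of Col1a1, with library 5 highest among tumour and library 11 among CD4 samples. Col1a2 (chr6:4504814-4541544, plus strand), the other type I chain, averaged 5072, 726.9 and 195.3 CPM in these 3 groups. Per kilobase of exon, Col1a1 and Col3a1 were level in 4T1 CTRL (611.3 and 586.1 CPM per kb) and in CD4 CTRL (79.4 and 77.6), with Col1a2 next at 408.2 and 58.5. The same 3 genes took the first 3 places in all 6 groups. The fourth place was far below and changed hands: Col5a1 held it in 4T1 CTRL (40.2 CPM per kb), Col4a1 in 4T1 C269, both CD4 groups and CD8 CTRL (26.3, 20.7, 21.97 and 2.71), and Col6a1 in CD8 C269 (6.25).

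The DNA before the start sites of Col1a2 and Col3a1 is shown because they were among the first 3 genes in every group. The type IV start is shown because Col4a1 and Col4a2 lie head to head. The sequences are from RefSeq (GRCm38.p6), and 22 of the 26 described genes matched an entry by symbol. Col1a2 is the window chr6:4505368-4505617 and Col3a1 the window chr1:45311288-45311537, each of 250 bases ending at the base before the RefSeq start, on the plus strand. The RefSeq start of Col1a2 lies inside the gene interval given above. Capitals mark the letters CCAAT of a CCAAT box, the letters TATAAA of a TATA-type box and the letters GGGCGG of a GC-type box, searched on both strands.
Col1a2: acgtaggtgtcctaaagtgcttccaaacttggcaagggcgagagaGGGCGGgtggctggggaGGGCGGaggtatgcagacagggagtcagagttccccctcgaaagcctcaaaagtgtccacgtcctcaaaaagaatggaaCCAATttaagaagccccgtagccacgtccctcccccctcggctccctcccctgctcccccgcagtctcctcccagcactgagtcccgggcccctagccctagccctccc
Col3a1: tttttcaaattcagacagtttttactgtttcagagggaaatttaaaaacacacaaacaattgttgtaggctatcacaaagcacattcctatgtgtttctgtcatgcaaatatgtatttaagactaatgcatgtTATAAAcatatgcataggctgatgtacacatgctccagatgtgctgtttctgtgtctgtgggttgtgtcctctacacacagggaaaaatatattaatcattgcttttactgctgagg

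Col1a2 held CCAAT with its first base at -109 and GGGCGG at -205 and -188 from the start, and Col3a1 held TATAAA at -117. Of 32851 RefSeq promoter windows of this length, 33.8% held CCAAT, 12.4% TATAAA and 32.7% GGGCGG. Among the 24 windows of described collagen genes the shares were 45.8%, 8.33% and 75.0%. A match describes letters only.

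Col4a1 (chr8:11198423-11312826, minus strand) and Col4a2 (chr8:11312805-11449287, plus strand) lie head to head, and in the GENCODE M21 gene models their starts overlap by 22 bases. The overlap with 4 bases on either side (chr8:11312801-11312830, plus strand) reads as follows, with GGGCGG in capitals.
Col4a1/Col4a2: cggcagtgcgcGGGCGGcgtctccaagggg

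Other fibrillar chains were far lower. Col5a1 and Col5a2, type V chains that nucleate fibrils, averaged 341.5 and 369 CPM in 4T1 CTRL, 88.94 and 59.29 in CD4 CTRL and 15.54 and 16.14 in CD8 CTRL. Col5a2 lies 24.615 kb from Col3a1. Col5a3 followed at 153.8, 21.35 and 5.837 CPM. Col27a1, a chain of cartilage and developing tissue, averaged 11.29, 2.056 and 2.938 CPM. Col11a1, a type XI chain, averaged 8.463 CPM in 4T1 CTRL, where library 2 held 26.83 CPM and library 4 1.003 CPM. Col11a2 (chr17:34039437-34066685, plus strand) ran the other way. It stood at 2.352, 0, 2.464, 2.258 and 1.385 CPM in 4T1 CTRL, at 10.44, 10.15, 9.602, 4.501 and 8.075 CPM in CD4 CTRL and at 4.861, 11.32, 9.282, 12.31 and 11.45 CPM in CD8 CTRL. Every T cell CTRL library was above every 4T1 CTRL library for this gene.

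The share of collagen counts taken by Col1a1, Col1a2 and Col3a1 together varied between libraries. It had a median of 82.9% in 4T1 CTRL (71.1% to 87.3%), 64.7% in CD4 CTRL (30.7% to 82.4%) and 73.5% in CD8 CTRL (70.0% to 78.6%). Summed over all 44 members, collagen counts had a median of 10780 CPM in 4T1 CTRL (3944 to 54680), 2072 CPM in CD4 CTRL (1479 to 6648) and 746.4 CPM in CD8 CTRL (420.1 to 995). Library 14 (CD4 CTRL) was at the low end of the share: type I and III chains made 30.7% of its collagen counts, Col4a1 and Col4a2 21.3%, and Col4a1, Col8a1, Col16a1 and Col18a1 together 40.5%. That library also held 1268 CPM of 4 macrophage markers, the highest sum in CD4 CTRL, and 182.5 CPM of 9 fibroblast markers, the lowest there. In 4T1 C269, libraries 9 and 10 were lowest, with shares of 65.3% and 54.6% and type IV shares of 10.9% and 17.1%. Their counts of Col1a2 per count of Col1a1 were 2.71 and 2.43, against 1.166 to 1.381 in the other 4T1 libraries. The part of the marker differences in these shares was not tested.

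**Figure D2:**
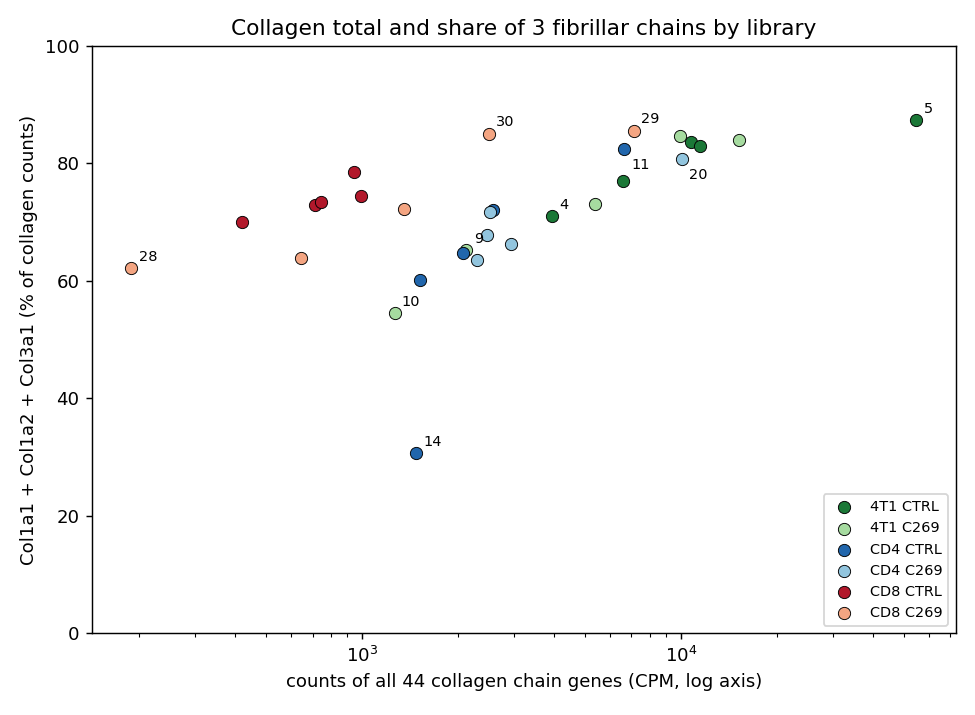
Each point is 1 library: the x axis (log scale) is the summed CPM of the 44 collagen chain genes and the y axis the percent of those counts from Col1a1, Col1a2 and Col3a1, with group in colour and libraries named in the text numbered. Library 5 sits at 54680 CPM and 87.3%, and library 14 lies apart at 30.7%.

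Type IV, VIII and XVIII chains were spread over tumour and CD4 libraries more evenly. Col4a1, the more abundant type IV chain, stood at 226.5, 216.8, 261.4, 175.1 and 519.1 CPM in 4T1 CTRL and at 150.5, 122.1, 163.2, 228.1 and 107.7 CPM in CD4 CTRL. In CD8 CTRL it stood at 13.56, 6.79, 23.95, 23.08 and 33.62 CPM. The tumour and CD4 ranges overlapped, and all CD8 libraries were below both. Its partner Col4a2 averaged 117.3, 60.42 and 9.885 CPM in the 3 groups. Per kilobase, Col4a1 ran at a median of 2.15 times Col4a2 in 4T1 CTRL (1.789 to 2.935) and 2.27 times in CD4 CTRL (2.171 to 2.331). In CD8 CTRL the median was 1.634 times, with a wider range (0.8704 to 5.457). Col4a5, an X-linked type IV chain, averaged 4.026 and 5.41 CPM in 4T1 and CD4 CTRL, and had 2 counts in all of CD8 CTRL.

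Col8a1, a short-chain network collagen of vessel walls and matrix-producing cells, held 119.1, 197.6, 117.8, 173.1 and 381.6 CPM in 4T1 CTRL. It held 133.2, 110.5, 101.4, 188 and 116.1 CPM in CD4 CTRL and 27.63, 11.6, 19.46, 18.85 and 22.53 CPM in CD8 CTRL. Col18a1, the basement membrane chain from which endostatin is cut, held 56.45, 90.29, 71.68, 66.98 and 54.72 CPM in 4T1 CTRL. Its CD4 CTRL values of 55, 37.9, 62.76, 93.02 and 38.35 CPM covered that range, and its CD8 CTRL values of 13.56, 5.092, 11.38, 10.39 and 11.45 CPM lay below. Library 5, highest of its group for Col1a1, was lowest of its group for Col18a1. Col16a1, a fibril-associated chain, averaged 95.57 ± 59.61, 55.03 ± 23.82 and 7.783 ± 3.285 CPM (SD, n = 5). Library 14 was the highest CD4 CTRL library for Col4a1, Col8a1, Col16a1 and Col18a1. Library 11, highest of that group for Col1a1 at 4.45 times the median of the others, was at 1.06 times for Col4a1 and 1.09 times for Col18a1.

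**Figure D3:**
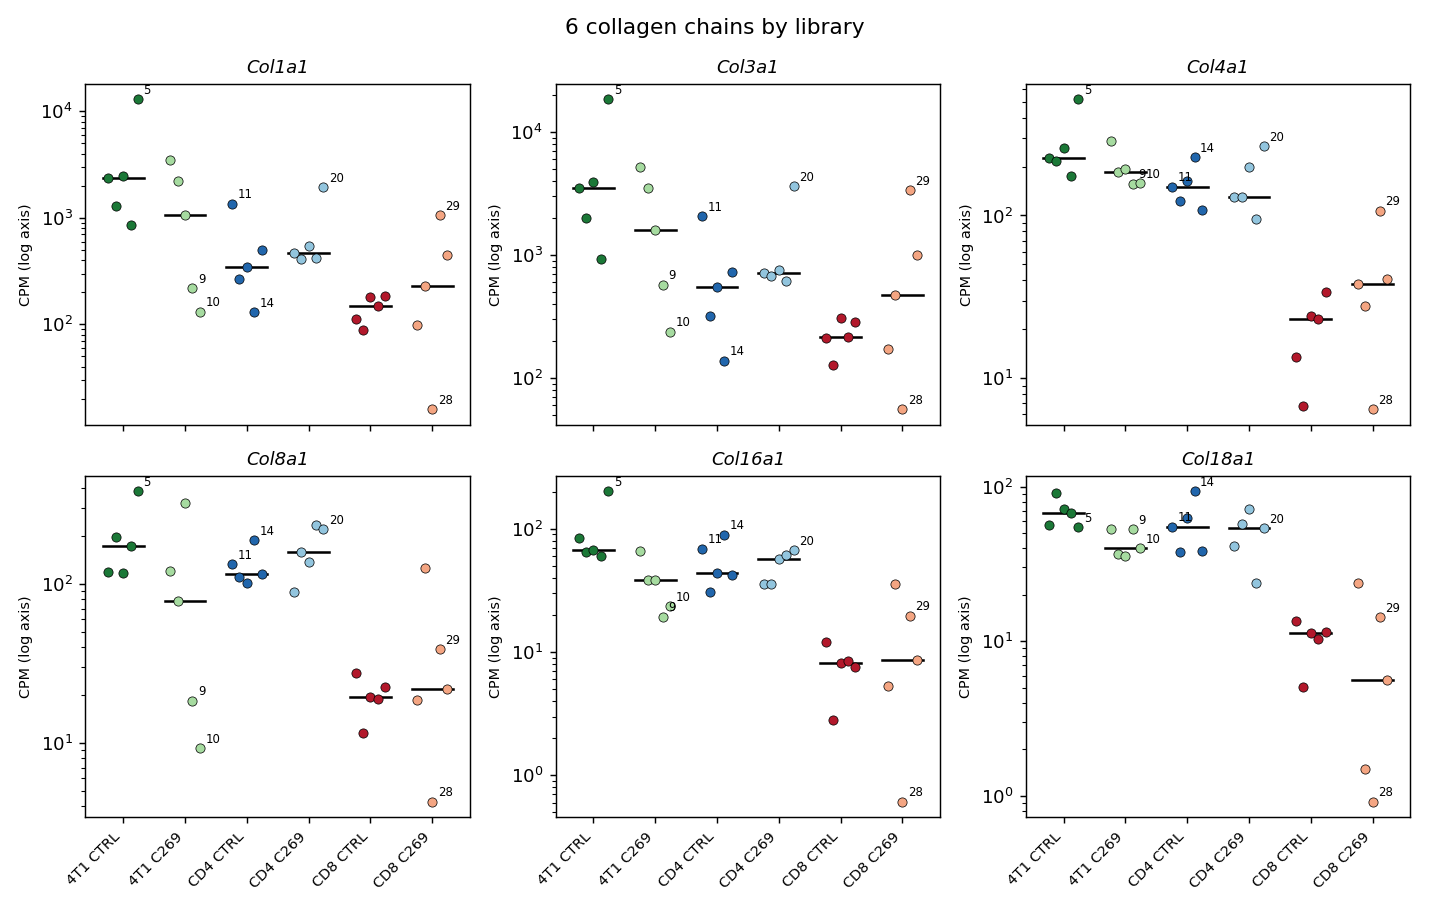
CPM (log axes) of 6 collagen chain genes, with 1 point for each library, a bar at the group median and libraries named in the text numbered. The CTRL medians of Col1a1 and Col3a1 step down from 4T1 to CD4 to CD8. The 4T1 CTRL and CD4 CTRL points of Col4a1, Col8a1, Col16a1 and Col18a1 overlap, and the CD8 CTRL points lie below both. This order does not hold for every C269 point: Col8a1 in 4T1 C269 was at 18.41 and 9.273 CPM in libraries 9 and 10.

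Type VI chains, which tie cells to the surrounding matrix, followed the fibril chains in level. Col6a3 averaged 226.3 CPM in 4T1 CTRL, 30.92 in CD4 CTRL and 10.71 in CD8 CTRL, Col6a2 152.1, 33.74 and 7.343, and Col6a1 139.1, 51.31 and 7.869. Col6a1 and Col6a2 lie 85.162 kb apart on chromosome 10. Per kilobase, Col6a1 ran at a median of 1.84 times Col6a2 in 4T1 CTRL and 3.03 times in CD4 CTRL. The low type VI chains differed in place: Col6a5 was highest in 4T1 C269 (7.191 CPM, libraries 6 to 10 at 16.25, 10.25, 6.856, 2.021 and 0.5795) and Col6a4 in CD8 CTRL (5.86 CPM). Col14a1, on mature fibrils, averaged 273.2, 35.55 and 17.76 CPM, and Col12a1, on fibrils under tension, 89.97, 11.51 and 2.927 CPM. Col15a1, the other multiplexin, averaged 62.31, 13.91 and 3.974 CPM. Col7a1, the anchoring fibril of the skin, averaged 13.64, 12.93 and 2.773 CPM. Of the membrane-spanning chains, Col25a1 had a mean of 10.79 ± 7.259 CPM in 4T1 CTRL and 0.8838 ± 0.954 CPM in 4T1 C269, and Col23a1 stayed between 1.428 and 5.319 CPM in all 6.

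The first comparison asked how the 3 CTRL populations differed, by edgeR's quasi-likelihood test in 1 fit of the 15 CTRL libraries with Benjamini-Hochberg adjustment over 13201 genes and a threshold of 0.05. Of the 44 members 28 passed the filter on low counts. Against CD4 CTRL, 4T1 CTRL had 16 collagen genes higher and 1 lower, where 7.01% and 5.71% of all genes tested were called in those directions. Against CD8 CTRL it had 23 higher and 1 lower, with 22.7% and 17.9% of all genes. CD8 CTRL against CD4 CTRL gave 0 higher and 11 lower, with 3.47% and 9.09% of all genes. The median log2 difference of the tested members was 2.28, 3.79 and -1.80 in the 3 comparisons, and that of all genes between -0.0047 and 0.012. A member that passed the filter only through a group where it is high had to differ, so these counts describe and do not support. The comparisons share libraries and are not independent of each other.

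Type I, III and V chains were higher in the tumour fraction than in both T cell fractions. Values are log2 differences with their standard error (SE) and edgeR adjusted p. Col1a1 was higher in 4T1 than in CD4 CTRL by 3.07 (SE 0.71, adjusted p = 0.00934) and than in CD8 CTRL by 4.86 (SE 0.78, adjusted p = 0.000115). Col1a2 differed by 2.93 (SE 0.74, adjusted p = 0.0151) and 4.75 (SE 0.80, adjusted p = 0.000189), and Col3a1 by 3.04 (SE 0.75, adjusted p = 0.0139) and 4.70 (SE 0.82, adjusted p = 0.000238). Between CD8 and CD4 these 3 chains did not pass: Col1a1 differed by -1.80 (SE 0.68, adjusted p = 0.0992), Col1a2 by -1.83 (SE 0.71, adjusted p = 0.107) and Col3a1 by -1.66 (SE 0.72, adjusted p = 0.152). A fit of only the CD8 and CD4 CTRL libraries called all 3, at -1.79 (adjusted p = 0.00994), -1.83 (adjusted p = 0.0159) and -1.66 (adjusted p = 0.0258) in edgeR. That fit called 18 of 23 tested members lower, and 23.3% of all genes in either direction. Col5a1 was the fibrillar chain that passed in the fit of 15 libraries, at -2.44 (SE 0.55, adjusted p = 0.00609) for CD8 minus CD4, besides 2.07 (SE 0.52, adjusted p = 0.0151) for 4T1 minus CD4 and 4.52 (SE 0.59, adjusted p = 1.92e-05) for 4T1 minus CD8. Col5a2 was higher in 4T1 by 2.77 (SE 0.67, adjusted p = 0.0118) over CD4 and 4.58 (SE 0.74, adjusted p = 0.000126) over CD8. For Col5a3 the differences were 2.97 (SE 0.69, adjusted p = 0.00903) and 4.79 (SE 0.77, adjusted p = 0.000129), and for Col27a1 2.54 (SE 0.74, adjusted p = 0.0309) and 1.98 (SE 0.73, adjusted p = 0.0373). Col11a1 passed only against CD8, at 3.09 (SE 1.14, adjusted p = 0.0378), with 2.25 (SE 1.06, adjusted p = 0.18) against CD4. In the fit of 15 libraries the gap between those differences is the CD8 minus CD4 difference, in which Col11a1 did not pass. Col11a2 was lower in 4T1, at -2.15 (SE 0.56, adjusted p = 0.0178) against CD4 and -2.41 (SE 0.56, adjusted p = 0.00259) against CD8.

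The type IV chains Col4a1, Col4a2 and Col4a5, with Col8a1, Col18a1, Col16a1 and Col7a1, passed for 4T1 against CD8 but not for 4T1 against CD4, while the basement membrane zone chain Col15a1 passed in both. In a fit of all 3 populations, the gap between a gene's difference to CD8 and its difference to CD4 is its CD8 minus CD4 difference. That difference passed for each gene named here. Col4a1 was higher in 4T1 than in CD8 CTRL by 3.84 (SE 0.40, adjusted p = 2.63e-06) and lower in CD8 than in CD4 CTRL at -2.85 (SE 0.38, adjusted p = 9.58e-05), while 4T1 minus CD4 was 0.99 (SE 0.35, adjusted p = 0.0739). Col4a2 gave 3.60 (SE 0.47, adjusted p = 1.97e-05), -2.52 (SE 0.46, adjusted p = 0.00126) and 1.08 (SE 0.42, adjusted p = 0.099) in the same order. Col8a1 differed by 3.31 (SE 0.32, adjusted p = 1.59e-06) for 4T1 minus CD8, -2.60 (SE 0.32, adjusted p = 4.22e-05) for CD8 minus CD4 and 0.71 (SE 0.29, adjusted p = 0.119) for 4T1 minus CD4. Col18a1 had 2.72 (SE 0.28, adjusted p = 2.63e-06), -2.37 (SE 0.28, adjusted p = 2.95e-05) and 0.35 (SE 0.26, adjusted p = 0.41), and Col16a1 3.64 (SE 0.43, adjusted p = 8.03e-06), -2.71 (SE 0.42, adjusted p = 0.000321) and 0.93 (SE 0.38, adjusted p = 0.117). Col7a1 was higher in 4T1 than in CD8 by 2.27 (SE 0.67, adjusted p = 0.0119) and lower in CD8 than in CD4 at -2.08 (SE 0.66, adjusted p = 0.0476). Col4a5 passed against CD8 with adjusted p = 0.000989 (4T1) and 0.00203 (CD4) in edgeR. Its CD8 level rests on 2 counts: the CPM ratio was 33.04 for 4T1 over CD8 (95% exact interval 8.83 to 277.8) and 43.2 for CD4 over CD8 (11.7 to 361.3), for counting error only.

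Of 5 tested beaded filament chains 4 were higher in 4T1 than in CD4 CTRL and 4 than in CD8 CTRL, and of 4 tested fibril-associated chains 2 and 3 were. Col6a3 was higher in 4T1 by 3.00 (SE 0.60, adjusted p = 0.00354) over CD4 and 4.45 (SE 0.65, adjusted p = 5.34e-05) over CD8 in edgeR. Col6a2 gave 2.30 (SE 0.46, adjusted p = 0.00352) and 4.40 (SE 0.52, adjusted p = 7.92e-06), with -2.10 (SE 0.49, adjusted p = 0.00795) for CD8 minus CD4. Col6a1 gave 1.56 (SE 0.41, adjusted p = 0.0194), 4.19 (SE 0.48, adjusted p = 6.05e-06) and -2.62 (SE 0.46, adjusted p = 0.000891). Col6a6, below 5 CPM in every group, gave 3.00 (SE 0.81, adjusted p = 0.0221) and 3.75 (SE 0.89, adjusted p = 0.00286) for 4T1 over CD4 and CD8. Col12a1 was higher in 4T1 by 3.08 (SE 0.69, adjusted p = 0.00768) and 4.97 (SE 0.79, adjusted p = 0.000116), and Col14a1 by 3.07 (SE 0.68, adjusted p = 0.0071) and 4.00 (SE 0.72, adjusted p = 0.000327). The multiplexin Col15a1, unlike Col18a1, passed in all 3 comparisons, at 2.31 (SE 0.45, adjusted p = 0.00299), 4.02 (SE 0.50, adjusted p = 1.3e-05) and -1.71 (SE 0.48, adjusted p = 0.0261) for CD8 minus CD4. Col25a1 was higher in 4T1 by 3.46 (SE 0.87, adjusted p = 0.0145) over CD4 and 3.46 (SE 0.88, adjusted p = 0.00481) over CD8. Col13a1, also a membrane-spanning chain below 5 CPM, passed against CD4 at 3.01 (SE 0.95, adjusted p = 0.0456). Col23a1, Col6a4 and Col20a1 passed in none of the comparisons in which they were tested.

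**Figure D4:**
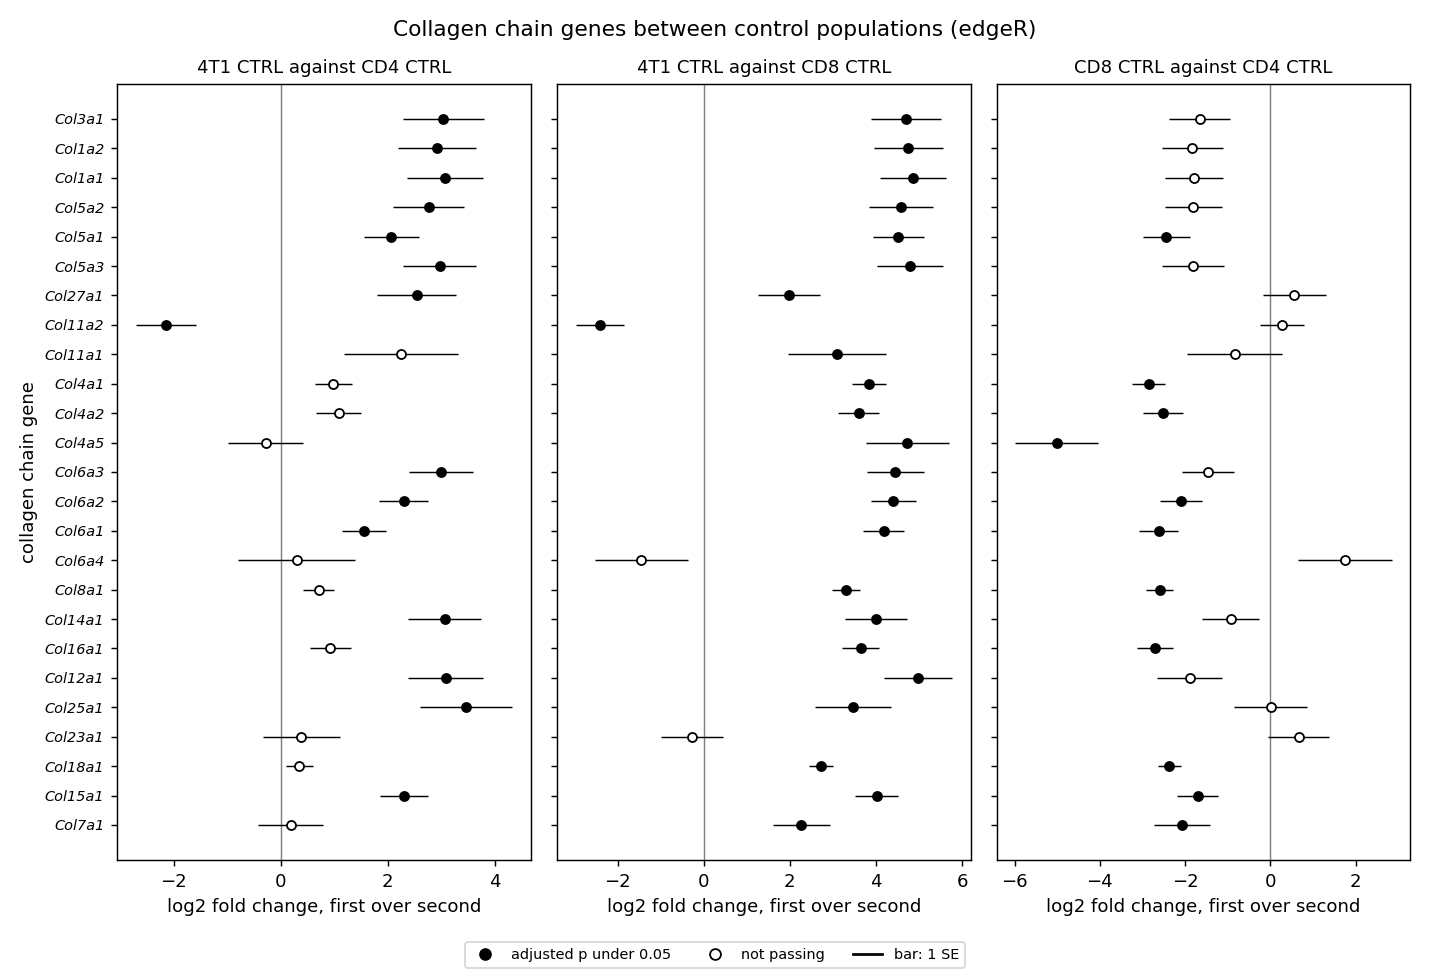
Log2 differences between CTRL populations (x axes) for 25 described collagen chain genes (rows) that passed the low-count filter, with bars of 1 SE. Filled points have an edgeR adjusted p under 0.05: in the left panel Col4a1, Col4a2, Col8a1, Col16a1 and Col18a1 are open, and in the right panel these 5 are filled while Col1a1, Col1a2 and Col3a1 are open.

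Marker lists of other cell types also differed between the populations. The summed CPM of 9 fibroblast markers without Thy1 (a surface protein that mouse T cells also carry, at a median of 500.7 CPM in CD8 CTRL) was 611.1 to 9746 in 4T1 CTRL, 182.5 to 969.2 in CD4 CTRL and 65.92 to 254.8 in CD8 CTRL. With Thy1 the 10 markers summed to 662 to 10140, 351.1 to 1261 and 454.1 to 888.7 CPM, and none was at 0 throughout a group. Pericyte and smooth muscle markers summed to 39.13 to 198.1, 31.13 to 52.76 and 3.463 to 8.683 CPM, with 1 of 8 at 0 in all CD8 CTRL libraries. Endothelial markers summed to 68.57 to 162.8, 115.3 to 153.8 and 85.03 to 109 CPM, with 1 of 8 at 0 in all CD8 CTRL libraries. Pecam1 alone averaged 64.46, 100.4 and 86.33 CPM of these sums in 4T1, CD4 and CD8 CTRL. Every other gene of that list had its lowest mean in CD8 CTRL, with Kdr at 15.82, 9.098 and 4.186 CPM and Egfl7 at 6.382, 8.95 and 1.8 CPM. Neutrophil markers (3 genes) summed to 3619 to 12890, 537.5 to 808.7 and 243 to 478.5 CPM in 4T1, CD4 and CD8 CTRL, and so also stepped down in that order without overlap. Macrophage markers (4 genes) summed to 349.9 to 2440, 229.9 to 1268 and 162.4 to 469.2 CPM, and red cell markers (2 genes) to 152.5 to 19500, 167.8 to 389.3 and 162.4 to 416.3 CPM, with overlapping ranges. The part of these cell types in the collagen differences was not tested.

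Which members passed depended in part on libraries 5 and 11. Without library 5, Col1a1 was higher in 4T1 than in CD4 CTRL by 1.87, Col3a1 by 1.88 and Col1a2 by 1.77 (edgeR adjusted p = 0.0540, not passing). Without library 11 the same differences were 3.81, 3.84 and 3.79. Without both libraries 4T1 against CD4 had 12 higher and 0 lower, against CD8 21 higher and 1 lower, and CD8 against CD4 10 lower, where 8.66%, 37.7% and 13.6% of all genes were called in either direction. The median over members for CD8 against CD4 was -1.08 without library 11 alone, and also without both. When each of the 10 libraries was left out in turn, 10 of 17 calls against CD4, 22 of 24 against CD8 and 9 of 11 for CD8 against CD4 were kept in every fit. Calls lost in at least 1 fit were Col25a1, Col5a1, Col1a2, Col6a1, Col6a6, Col27a1 and Col13a1 against CD4, Col27a1 and Col11a1 against CD8, and Col15a1 and Col7a1 for CD8 against CD4. Of these, Col13a1 and Col7a1 were kept in 1 of 10 fits and Col11a1 in 4, while Col25a1, Col5a1 and Col1a2 were lost in 1. In the C269 groups the same comparisons called 0 of 26 tested members for 4T1 against CD4, where 1.23% of all genes were called higher. They called 5 for 4T1 against CD8 (Col4a1 2.24, Col18a1 2.30, Col15a1 2.31, Col6a3 2.18 and Col6a2 2.20; 12.3% of all genes) and 1 for CD8 against CD4 (Col18a1 -2.33, adjusted p = 0.0487; 2.8% of all genes). Without libraries 9 and 10, 0 members passed against CD4 and 13 against CD8 in the C269 groups, where 3.42% and 15.7% of all genes were called in either direction.

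Genes that process collagen or share its matrix were also read from gene lists. Over all genes, 7.01% were called higher in 4T1 than in CD4 CTRL and 22.7% higher than in CD8 CTRL. Between CD8 and CD4 CTRL, 9.09% of all genes were called lower in CD8. Of 27 tested enzymes and chaperones (30 listed), 9 were higher in 4T1 than in CD4 CTRL (adjusted p from 0.00331 to 0.0273 in edgeR, median of the tested 1.18). They were the N-proteinase Adamts2, the cross-linking lysyl oxidases Loxl1, Lox and Loxl2, the proteinase enhancers Pcolce2 and Pcolce, the collagen chaperone Serpinh1, the lysyl hydroxylase Plod1 and the prolyl hydroxylase subunit P4hb. Their log2 differences were Adamts2 3.47, Loxl1 3.33, Lox 3.25, Loxl2 2.92, Pcolce2 1.80, Serpinh1 1.63, Pcolce 1.55, Plod1 1.14 and P4hb 1.07. Against CD8 CTRL 23 of 27 were higher (median 3.19), among them those 9 with Adamts2 4.80, Loxl1 4.39, Lox 4.87, Loxl2 4.21, Pcolce2 3.42, Serpinh1 3.97, Pcolce 4.04, Plod1 2.42 and P4hb 1.41. The other 14 were Loxl3 3.19, Bmp1 3.92, Plod3 1.83, Crtap 2.45, P3h3 3.55, Pxdn 4.03, P4ha2 4.14, Plod2 1.85, P4ha3 5.46, Colgalt1 1.09, P3h1 2.16, P3h4 3.43, P4ha1 0.86 and Loxl4 2.56. In CD8 against CD4 CTRL 10 were lower (median -1.29): Loxl3 -2.54, Pcolce -2.49, Bmp1 -2.74, Serpinh1 -2.34, Crtap -1.87, Plod1 -1.28, Pxdn -2.84, Plod3 -1.02, P4ha2 -2.53 and P3h3 -2.07.

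Fibrillar matrix partners were the list with most calls between tumour and CD4 libraries, where 7.01% of all genes were called higher in 4T1. All 13 tested of 14 listed genes, which code for small proteoglycans, elastic fibre and glycoprotein components and a collagen-degrading protease, were higher in 4T1 (adjusted p from 4.74e-05 to 0.0191 in edgeR, median 2.67). Log2 differences were Lum 3.70, Eln 3.48, Bgn 3.18, Dcn 3.11, Tnc 3.06, Fbn1 2.91, Postn 2.67, Vcan 2.66, Thbs2 2.56, Ctsk 2.53, Sparc 2.39, Fn1 1.66 and Thbs1 1.47. The same 13 were higher against CD8 CTRL, from 2.28 for Thbs1 to 5.52 for Lum (median 4.34), where 22.7% of all genes were called higher. In CD8 against CD4 CTRL 2 were lower, Fn1 (fibronectin) at -1.64 and Sparc at -1.95, where 9.09% of all genes were called lower. Basement membrane partners had 5 of 10 tested higher in 4T1 than in CD4 (Lama2 3.27, Nid1 2.87, Lama4 2.15, Lamb2 1.59 and Hspg2 1.25; median 1.41). All 10 were higher against CD8, from 2.17 for Agrn to 5.03 for Lamb2, with Lama5 2.92, Lamc1 2.26, Lamb1 3.26, Hspg2 3.32, Lama4 3.65, Nid1 3.84, Nid2 3.21 and Lama2 4.35. In CD8 against CD4, 6 of 10 were lower: Lama5 -2.86, Lamb1 -2.84, Lamc1 -1.84, Agrn -2.29, Lamb2 -3.44 and Hspg2 -2.07. Collagen receptors had 4 of 10 higher in 4T1 than in CD4 (Itga11 3.76, Mrc2 2.52, Cd36 1.44 and Cd44 0.78), 6 of 10 than in CD8 (Itga11 4.55, Mrc2 3.87, Ddr2 3.45, Cd36 3.15, Cd44 1.11 and Itgb1 0.57) and 2 lower in CD8 than in CD4 (Ddr2 -2.997 and Cd36 -1.71).

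The second question was what C269 did to collagen genes in the tumour fraction. No collagen gene passed edgeR's test in 4T1 (0 of 29 tested; 0% of 12875 genes called), while 5 members and 1536 of all genes had an unadjusted p under 0.05. Values were lower in C269 for 24 members and higher for 5, with a median log2 difference (C269 minus CTRL) of -0.83 against 0.02 over all genes. Col1a1 stood at 3465, 2214, 1076, 219.8 and 132.1 CPM in libraries 6 to 10, a mean of 1421 ± 1417 against 4012 ± 5094 CPM in CTRL (SD, n = 5 each). Its edgeR log2 difference was -1.44 (SE 1.00, adjusted p = 0.584). Col3a1 stood at 5214, 3507, 1591, 573.4 and 238.6 CPM with -1.32 (SE 0.96, adjusted p = 0.601), and Col4a1 at 285.5, 185.9, 194.4, 156.5 and 158.4 CPM with -0.49 (SE 0.35, adjusted p = 0.592). For all 3 the C269 and CTRL ranges overlapped, libraries 9 and 10 had the lowest C269 values of Col1a1 and Col3a1, and library 5 had the highest CTRL value.

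The members with the smallest p were Col25a1, Col16a1, Col18a1, Col12a1 and Col11a1. Col25a1 (chr3:130131501-130599877, plus strand) held 3.421, 16.18, 5.376, 8.529 and 20.43 CPM in CTRL and 1.354, 0.8198, 0, 2.245 and 0 CPM in C269, so the groups did not overlap. Its edgeR log2 difference was -3.51 (SE 1.01, adjusted p = 0.355), against -3.55 (SE 0.92, adjusted p = 0.00589) by DESeq2, where it was the only collagen gene called (3.66% of 27286 genes called). The authors' deposited table also had Col25a1 as its only collagen gene below 0.05 among 39 with an adjusted p, at 3.07 for CTRL over C269 with adjusted p = 0.00728. Without libraries 9 and 10 DESeq2 gave -3.76 (adjusted p = 0.0133), and without libraries 5, 9 and 10 -3.35 (adjusted p = 0.0827, not passing). Over the 19 alternatives run, its adjusted p lay between 0.00589 and 0.923. Col16a1 stood at 66.59, 38.74, 38.69, 19.31 and 23.57 CPM in C269 against 84.89, 64.74, 67.65, 59.7 and 200.9 in CTRL, with -1.32 (SE 0.47, adjusted p = 0.355) in edgeR. Col18a1 held 52.82, 36.48, 35.51, 52.76 and 39.8 CPM in C269, all below the lowest CTRL library, with -0.61 (SE 0.23, adjusted p = 0.366). Col12a1 differed by -1.67 (SE 0.71, adjusted p = 0.393) and Col11a1 by -2.59 (SE 1.14, adjusted p = 0.406).

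The lower collagen values in tumour C269 libraries rested on a few libraries. Without library 5 the median over 30 tested members was -0.18, and Col1a1 differed by -0.23, Col3a1 by -0.14 and Col4a1 by -0.12. Without library 10 the median was -0.55. Without libraries 9 and 10 it was -0.51 over 31 tested members, with Col1a1 at -0.72, Col3a1 at -0.64 and Col4a1 at -0.25. Without libraries 5, 9 and 10, 21 of 28 tested members were higher in C269 and the median was 0.27, with Col1a1 at 0.44, Col3a1 at 0.49 and Col4a1 at 0.08. Col25a1 at -3.30, Col18a1 at -0.69 and Col16a1 at -0.45 kept their sign in that fit. Library 5 held 9746 CPM of the 9 fibroblast markers, and libraries 9 and 10 held 713.5 and 505 CPM. Neutrophil markers summed to 356.5 to 11570 CPM in 4T1 C269 and 3619 to 12890 CPM in 4T1 CTRL. In libraries 9 and 10 the genes of that list went opposite ways. Ly6g stood at 282.2 and 278.4 CPM there, against at most 26.73 CPM in 4T1 CTRL. S100a8 (27.39 and 36.32 CPM) and S100a9 (46.92 and 49.26 CPM) were below every other 4T1 library. The part of other cell types in these values was not tested.

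In CD4+ T cell libraries no collagen gene passed edgeR's test of C269 against CTRL (0 of 22 tested; 0% of 12393 genes called) or DESeq2's. At an unadjusted p under 0.05 there were 2 members and 697 genes in all with edgeR. Values were higher in C269 for 17 members and lower for 5, with a median of 0.28 against 0.0047 over all genes. Col1a1 stood at 470.3, 412.2, 545.9, 417.2 and 1939 CPM in libraries 16 to 20, with 0.51 (SE 0.56, adjusted p = 0.933) in edgeR. Col3a1 stood at 713.5, 671, 762.1, 613.9 and 3632 CPM with 0.72 (SE 0.63, adjusted p = 0.92), and Col4a1 at 130, 130.2, 198, 94.51 and 267.2 CPM with 0.09 (SE 0.26, adjusted p = 0.982). Library 20 was highest for all 3, and the other 4 C269 libraries lay inside the CTRL range of Col1a1 and Col3a1. The smallest p belonged to Col6a2 at 0.74 (SE 0.29, adjusted p = 0.865), Col6a1 at 0.49 (SE 0.22, adjusted p = 0.882), Col11a2 at -1.09 (SE 0.54, adjusted p = 0.883), Col15a1 at 0.72 (SE 0.38, adjusted p = 0.896) and Col8a1 at 0.36 (SE 0.22, adjusted p = 0.902). Without library 20 the median was -0.17, with Col1a1 at -0.21, Col3a1 at -0.18 and Col4a1 at -0.16. Without library 11 the median was 0.63 and without library 17 it was 0.48. Without libraries 11 and 20, 15 members were higher and 7 lower, with Col1a1 at 0.55, Col3a1 at 0.64 and Col4a1 at -0.16. Library 20 held 2257 CPM of the 9 fibroblast markers, against 374.8 CPM in the lowest library of its group, and library 11 held 969.2 CPM. Their part in the collagen values was not tested.

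In CD8+ T cell libraries collagen values ran higher in C269, but no gene of the family passed edgeR's test (0 of 21 tested; 0.00914% of 10943 genes called) or DESeq2's. Members with an unadjusted p under 0.05 numbered 6 in edgeR, against 725 of all genes in edgeR. Of the 21, 16 were higher and 5 lower in C269, with a median of 1.28 against 0.01 over all genes. Col3a1 stood at 173.6, 470.2, 55.67, 3356 and 1002 CPM in libraries 26 to 30, and Col1a1 at 99.16, 231.9, 15.91, 1065 and 444.1 CPM. The C269 libraries thus lay both below and above the CTRL ranges of these genes. The smallest p belonged to Col3a1 at 2.18 (SE 0.74, adjusted p = 0.739), Col6a1 at 1.82 (SE 0.67, adjusted p = 0.739), Col5a1 at 1.51 (SE 0.61, adjusted p = 0.741), Col5a2 at 1.67 (SE 0.67, adjusted p = 0.741) and Col1a2 at 1.56 (SE 0.67, adjusted p = 0.742). Col1a1 differed by 1.41 (SE 0.68, adjusted p = 0.742). Col4a1, at 37.99, 27.92, 6.424, 106.7 and 40.64 CPM, differed by 1.15 (SE 0.56, adjusted p = 0.742).

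Settings moved the CD8 result. Without a filter on low counts edgeR called 5 members higher in C269: Col3a1 at 2.10, Col5a2 at 1.59, Col1a2 at 1.48, Col5a1 at 1.43 and Col1a1 at 1.33, where 0.67% of 24171 genes were called. Without library 29 Col3a1 differed by 0.88, Col1a1 by 0.45 and Col4a1 by 0.47, and the median over members was 0.47. Without libraries 28 and 29 they differed by 1.24, 0.83 and 0.80, and the median was 0.83. Counts of Col3a1 per count of Col1a1 were 1.751 to 3.5 in CD8 C269 and 1.441 to 1.864 in CD8 CTRL. The 9 fibroblast markers summed to 2157 CPM in library 29, 645.1 CPM in library 30 and 84.12 CPM in library 28, against 65.92 to 254.8 CPM in CD8 CTRL, and their part in these values was not tested.

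**Figure D5:**
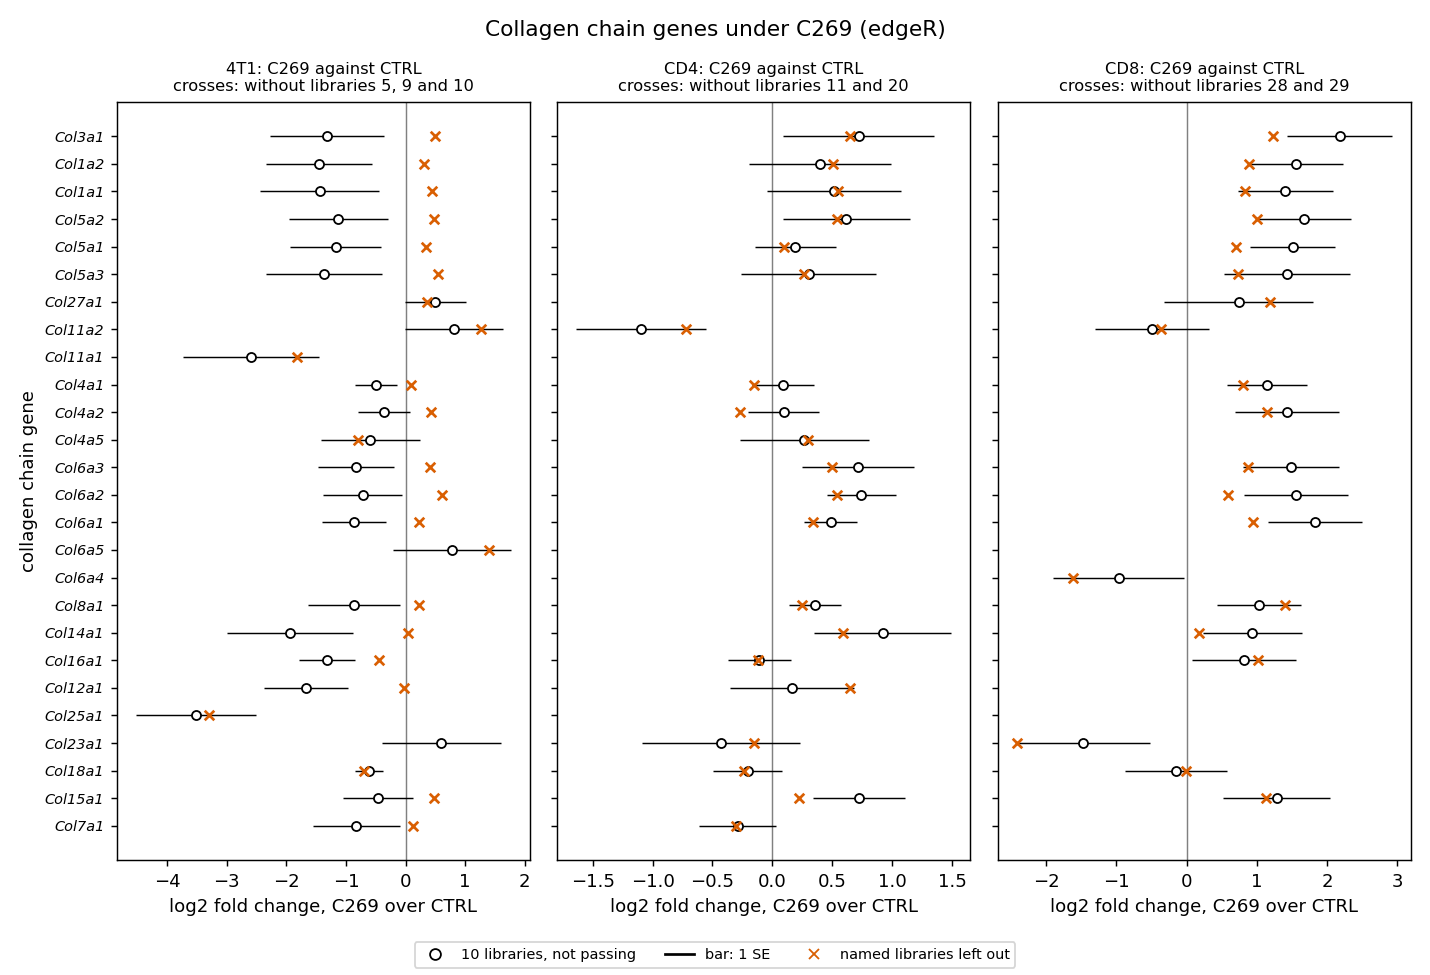
Log2 differences, C269 over CTRL (x axes, a separate scale in each panel), for described collagen chain genes (rows) that passed the low-count filter. Circles with bars of 1 SE are the fits of 10 libraries, none with an edgeR adjusted p under 0.05, and crosses the fits without the named libraries: in 4T1 the Col1a1 cross is at 0.44 and the Col25a1 cross at -3.30.

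The difference of the C269 effect between populations was tested as a contrast in 1 edgeR fit of all 30 libraries, with 33 members among 14731 genes. No member passed in the contrast of 4T1 and CD4 (0.00679% of all genes called), of 4T1 and CD8 (0.00679%) or of CD8 and CD4 (0%). At an unadjusted p under 0.05 there were 2, 19 and 2 members. Counts over all genes at that level are not given for these contrasts, so these counts and DESeq2's below only describe. For 4T1 minus CD4 the effects with the smallest p were Col14a1 at -2.80 (SE 1.25, adjusted p = 0.481), Col25a1 at -3.25 (SE 1.58, adjusted p = 0.529), Col6a1 at -1.29 (SE 0.75, adjusted p = 0.609), Col11a2 at 1.95 (SE 1.13, adjusted p = 0.61) and Col12a1 at -1.78 (SE 1.06, adjusted p = 0.614). For 4T1 minus CD8 they were Col6a1 at -2.59 (SE 0.78, adjusted p = 0.115), Col5a1 at -2.59 (SE 0.94, adjusted p = 0.17), Col4a5 at -4.04 (SE 1.47, adjusted p = 0.173), Col11a1 at -4.89 (SE 1.80, adjusted p = 0.177) and Col3a1 at -3.41 (SE 1.29, adjusted p = 0.186). DESeq2 called Col6a1 in that contrast, at -2.73 (adjusted p = 0.0256; 1.99% of 31020 genes called), and no member in the others, with 2, 22 and 2 at an unadjusted p under 0.05. Without library 6 edgeR also called Col6a1, at -2.995 (adjusted p = 0.0461), and over 25 alternatives its adjusted p lay between 0.0256 and 0.346. For CD8 minus CD4 the smallest p belonged to Col11a1 at 4.10 ± 1.82 (SE), Col4a5 at 3.23 ± 1.44 (SE), Col4a4 at 3.73 ± 1.83 (SE), Col6a1 at 1.30 ± 0.78 (SE) and Col6a5 at 2.84 ± 1.74 (SE), each with an edgeR adjusted p of 1. The median difference of effects was -1.14, -2.23 and 0.82 in the 3 contrasts, against 0.07, 0.10 and -0.01 over all genes. These medians depended on single libraries. Without library 5 the first was -0.64 and the second -1.41. Without library 29 the second was -1.26 and the third 0.045, and without library 11 the third was 0.41. Without libraries 9 and 10 no member passed in the contrasts of 4T1 with CD4 or with CD8. The median of the fibrillar chains was then -1.075 and -2.032, against -1.616 and -2.707 in the fit of all 30 libraries. The contrasts share libraries, so their values are set side by side only.

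The pathway lists had no call under C269 in the main edgeR fits, but alternatives called some. They are counted here among the 47 collagen and list genes named under C269, each counted per population. Without a low-count filter edgeR called 10 of them, 5 being the collagen genes in CD8. With all 30 libraries in 1 fit edgeR called 2, none a collagen gene. DESeq2 called 5, with Col25a1 in 4T1 the only collagen gene. In 4T1, values were lower for 25 of 27 enzymes and chaperones, 13 of 13 fibrillar partners, 9 of 11 basement membrane partners and 7 of 10 receptors (medians -1.20, -1.20, -0.94 and -0.75, against 0.02 over all genes). At an unadjusted p under 0.05 there were 6, 1, 5 and 3 genes. The 2 smallest p of each list belonged to P4ha1 (-1.65 (SE 0.49, adjusted p = 0.355)) and Crtap (-1.31 (SE 0.39, adjusted p = 0.355)), to Eln (-1.60 (SE 0.69, adjusted p = 0.399)) and Lum (-1.32 (SE 0.72, adjusted p = 0.481)), to Hspg2 (-1.26 (SE 0.41, adjusted p = 0.355)) and Lamb1 (-0.84 (SE 0.33, adjusted p = 0.369)), and to Cd36 (-1.53 (SE 0.48, adjusted p = 0.355)) and Ddr1 (2.27 (SE 0.77, adjusted p = 0.355)). P4ha1 and Crtap take part in prolyl hydroxylation of chains, elastin and lumican lie with fibrils, perlecan (Hspg2) and Lamb1 in basement membranes, and Cd36 and Ddr1 bind collagen at the cell surface. These list counts and medians are from the fit of all 10 libraries only. Without libraries 5, 9 and 10 Lum was at 0.12, and the collagen median moved from -0.83 to 0.27.

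The list counts in CD4 and CD8 are likewise from fits of all 10 libraries only. Without library 20 the collagen median was -0.17 in CD4, and without library 29 it was 0.47 in CD8. In CD4 libraries the lists were higher for 17 of 27, 13 of 13, 7 of 9 and 4 of 9 genes in the same order, with 0, 0, 1 and 1 at an unadjusted p under 0.05. By smallest p these were P4ha1 (-0.25 (SE 0.14, adjusted p = 0.902)) and Adamts2 (1.00 (SE 0.58, adjusted p = 0.902)), Lum (1.00 (SE 0.54, adjusted p = 0.899)) and Tnc (0.87 (SE 0.50, adjusted p = 0.902)), Nid1 (1.35 (SE 0.62, adjusted p = 0.882)) and Nid2 (0.77 (SE 0.52, adjusted p = 0.907)), and Ddr1 (0.58 (SE 0.23, adjusted p = 0.867)) and Cd44 (0.38 (SE 0.19, adjusted p = 0.883)) in edgeR. In CD8 libraries they were higher for 17 of 21, 13 of 13, 8 of 8 and 6 of 7 genes, with 5, 8, 0 and 1 at an unadjusted p under 0.05. Their medians were 0.64, 1.35, 0.59 and 0.61, against 0.01 over all genes. The smallest p there belonged to Pcolce2 (2.33 (SE 0.81, adjusted p = 0.739)) and Adamts2 (2.18 (SE 0.78, adjusted p = 0.739)), Postn (2.27 (SE 0.64, adjusted p = 0.739)) and Lum (2.83 (SE 0.82, adjusted p = 0.739)), Lamb2 (1.91 (SE 0.92, adjusted p = 0.742)) and Lamc1 (0.64 (SE 0.32, adjusted p = 0.749)), and Cd44 (0.61 (SE 0.19, adjusted p = 0.739)) and Cd36 (1.43 (SE 0.81, adjusted p = 0.786)).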

How the data were processed

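RNA extracted with a Lexogen SPLIT kit was sequenced on a NextSeq instrument, per the labels' protocols. FastQC, featureCounts and DESeq2, with mm9 as the build, are named in the submitters' processing notes. The sources used here give no aligner or version. Of 55141 gene identifiers found in GENCODE M21 (GRCm38), 54928 had the deposited start (99.6%), so coordinates are given for GRCm38. Whether featureCounts used strand is not stated in the sources used here, and 7 of the described genes share exon bases with another gene, by at most 1.9% of their exons.

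Each of 3 deposited tables holds 1 population. Library columns hold the authors' raw counts per gene. The baseMean column is a signal from the authors' DESeq2 run. The authors' fold change, CTRL over C269, is a log2 value per the file headers, and their Wald statistic is a score. Deposited p-value columns hold the p-value and the adjusted p-value. The numbered library columns were tied to groups by the condition columns, each of which equalled the sum of exactly 1 set of 5 columns out of 252 in 100% of genes. The letters of replicates in the titles could not be tied to columns.

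Ribosomal RNA made up 7 rows and 3.05% of counts and was left out. CPM scale counts by the library's gene total. Tests used edgeR 4.0.16 in R 4.3.3 (filterByExpr, TMM, glmQLFit, glmQLFTest) on all genes, with Benjamini-Hochberg adjustment and a threshold of 0.05. DESeq2 1.42.0 was the alternative test. Other alternatives were RLE size factors, no low-count filter, ribosomal rows kept, other sets of libraries in the fit and each library left out in turn. The edgeR tests of C269 against CTRL were tested on simulated data. Log2 differences carry a standard error.

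Members, gene lists and alternatives were chosen with earlier results of these data known. Every member of at least 5 CPM is named with its levels. Differences are printed for every member that passed and, where none passed, for the 5 with the smallest p, and always for Col1a1, Col3a1 and Col4a1 under C269. From the pathway lists, passing genes or the 2 with the smallest p are printed. Enzymes, partners and receptors of collagen were counted by direction, with no set test. A gene of the basement membrane partner list is not reported here and was left out of that list's counts and medians. Depth ran from 2005579 to 5176494 counts per library, which limits genes of a few CPM.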

Additional observations from a re-analysis of the deposited data

Results flagged for a closer look

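In groups of 5 libraries, 84 sets of values from 14 collagen genes were checked for a library whose gap to the nearest other was above Dixon's critical share of the group's range. Such gaps were found in 25 sets. Chance flags about 1 in 20 groups of independent, normally distributed values. These sets share libraries and genes that vary together, so 25 is given as a count and not held against that rate. Library 5 (4T1 CTRL) was far above the other 4 for Col1a1 (13040 CPM), Col1a2 (16230), Col3a1 (18480), Col5a1 (976.2), Col4a1 (519.1), Col4a2 (257.3), Col16a1 (200.9), Col6a1 (335.9), Col14a1 (913.9) and Col12a1 (299.9). Library 20 (CD4 C269) was far above its group for Col1a1 (1939 CPM), Col1a2 (2579), Col3a1 (3632), Col5a1 (207.2) and Col14a1 (204.0). Library 11 (CD4 CTRL) stood out for Col1a2 (2045 CPM), Col14a1 (86.83) and Col12a1 (31.32). In CD8 C269, library 29 stood out for Col3a1 (3356 CPM), Col5a1 (131.4), Col6a1 (83.98) and Col12a1 (21.74), library 27 for Col8a1 (125.2 CPM) and library 30 for Col11a2 (21.25 CPM). Library 22 (CD8 CTRL) lay far below its group for Col6a1 (1.697 CPM).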

How the results depend on the processing

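No paired analysis was possible because the letters that number replicates in the titles could not be tied to library columns. DESeq2 called 1 collagen gene under C269 in 4T1, also when libraries 9 and 10 were left out, and edgeR without a low-count filter called 5 in CD8. In the C269 groups the population comparisons called 0 (4T1 against CD4), 5 (4T1 against CD8) and 1 (CD8 against CD4), and without libraries 9 and 10 the first and second called 0 and 13. Fitting only the CD8 and CD4 CTRL groups called 18 (23.3% of all genes in either direction), Col1a1, Col1a2 and Col3a1 among them. For the difference of C269 effects between 4T1 and CD8, DESeq2 called 1 and leaving out single libraries gave 0 to 1. Leaving out single libraries gave 12 to 19, 22 to 25 and 9 to 10 calls in the population comparisons. Shares of all genes called in those fits are not given, so these ranges only describe.

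Without libraries 5, 9 and 10, C269 against CTRL in 4T1 turned positive for Col1a1 (0.44 in edgeR and 0.44 in DESeq2), Col3a1 (0.49 and 0.50), Col4a1 (0.084 and 0.088) and Lum (0.12 and 0.12). In CD4, leaving out single libraries gave -0.21 to 1.26 for Col1a1, -0.18 to 1.53 for Col3a1 and -0.16 to 0.25 for Col4a1, and without libraries 11 and 20 Col4a1 was at -0.16. In the C269 groups without libraries 9 and 10, Col11a2 was at 0.26 for 4T1 against CD4 and Col11a1 at -1.13 for 4T1 against CD8. The cause was not tested for any of these. RLE size factors and kept ribosomal rows left the called counts within 1.5 times. Alternatives without libraries 5, 11, 20, 28 and 29 in pairs or triples, and DESeq2 without libraries 9 and 10, were chosen after seeing the data. Genes of a few CPM rest on few counts per library.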
